A study of Danio rerio with 4 samples.

Results

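The 10 genes described here encode parts of the circadian clock and were followed across 4 arrays of zebrafish testis. They are the activator genes clocka, clockb and bmal2 and the repressor genes per1b, per2, per3, nr1d1, nr1d2a, nr1d2b and bhlhe41. Members were found by symbol, through the transcript that each probe was designed on, and 20 probes of the array belonged to them. All 10 genes were among the 24330 tested, of 28317 genes and transcripts with a probe. The testes were those of fish aged 4 months. For 6 weeks these had been kept at 20 µg/L microcystin-LR (MCLR), a toxin of cyanobacteria and an inhibitor of serine/threonine phosphatases, or at 0 µg/L (control). Each group had 2 arrays, all on slide 1, with MCLR at positions 1 and 2 and control at positions 3 and 4, so that position and group cannot be told apart. The labels give neither the hour at which testes were taken nor the light regime. The design text speaks of 2 independent experiments that each held both groups, but the labels do not tie an array to an experiment or say whether a sample was 1 fish or a pool. The p-values measure only the spread between these samples.

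The vertebrate clock is a loop of transcription and translation. CLOCK and BMAL proteins bind DNA as a pair and switch on the period, cryptochrome, Rev-erb and Dec genes, whose products then shut that pair down. Period and cryptochrome proteins block the pair itself, Rev-erb proteins (the nr1d genes) silence the bmal genes, and Dec proteins compete for the same DNA sites. In zebrafish many tissues hold clocks that respond directly to light, and per2 is one of the genes that light induces. In mouse testis, clock gene RNA has been found to cycle little over the day.

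Most repressor genes stood lower in MCLR testes and the activator genes higher, but with limma 0 of the 10 passed the adjusted threshold of 0.05, as was the case for 0% of all genes tested. The smallest adjusted p was 0.420, for nr1d2a. At an unadjusted p under 0.05 there were 3 members, with bmal2 higher and nr1d2a and bhlhe41 lower, where 9.2% of all genes reached that p, 8.67% higher and 0.53% lower. In the choice of 1 probe per gene, 6 of the 7 repressors were lower in MCLR, and for 4 of them both MCLR arrays lay below both control arrays, as they did for 9.08% of all genes. All 3 activators were higher, and for 2 both MCLR arrays lay above both control arrays, as they did for 25.3% of all genes. The median log2 fold change was -0.51 over the repressors and 0.75 over the activators, against 0.08 over all genes. In bulk tissue, fewer cells of a type and less RNA per cell cannot be told apart.

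**Figure D1:**
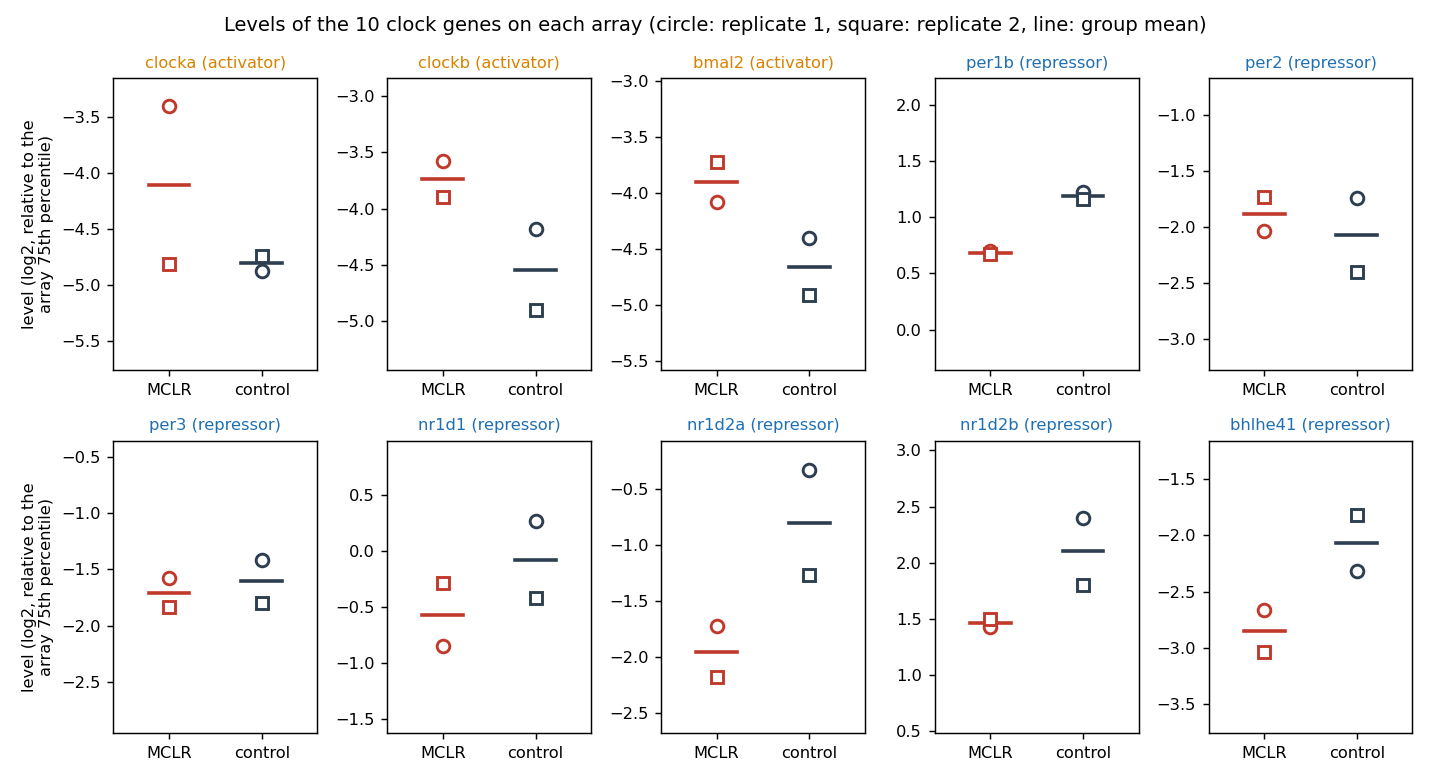
Level of each clock gene on each array, on a log2 scale relative to the array's 75th percentile of signal, with MCLR left of control, a circle for replicate 1, a square for replicate 2 and a line at the group mean. Each panel spans the same number of log2 units. The MCLR points of per1b, nr1d2a, nr1d2b and bhlhe41 lie below both control points, and those of clockb and bmal2 above them.

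The Rev-erb genes encode nuclear receptors that repress transcription when they bind haem. Levels are log2 units above or below the 75th percentile of signal of the same array. That of nr1d2a was -1.72 and -2.18 on the MCLR arrays and -0.33 and -1.27 on the control arrays. Both MCLR arrays were below both controls, and control replicate 1 was the highest. MCLR minus control came to -1.15 ± 0.39 log2 units (SE, 2 arrays in each group), or 2.22-fold lower, with a 95% interval from -2.12 to -0.18, an unadjusted p of 0.0282 and an adjusted p of 0.420 (limma). For nr1d2b the levels were 1.43 and 1.4999 in MCLR and 2.40 and 1.80 in control, again without overlap and with control replicate 1 on top. The log2 fold change of nr1d2b was -0.63 ± 0.29 (95% interval -1.37 to 0.10, adjusted p = 0.653). The third gene, nr1d1, stood at -0.85 and -0.29 in MCLR and at 0.27 and -0.42 in control. Here the groups overlapped, and the log2 fold change of -0.49 ± 0.35 had an interval from -1.37 to 0.39.

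Probes of the Rev-erb genes did not all move alike. Of the 3 nr1d2a probes, the other bright one gave a log2 fold change of -0.73 ± 0.37 with no overlap between groups, and the dim one gave 0.54 ± 0.25 in the other direction, at -3.79 on both MCLR arrays and -4.41 and -4.24 on the control arrays. The mean of the 3 probes gave -0.45. For nr1d2a the size thus depends on the probe by more than 1.5 times, and the direction depends on it too. For nr1d2b the second probe gave -0.26 ± 0.36, and the third did not stand well above background on any array. A second, dim probe of nr1d1 gave 0.13 ± 0.40.

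The product of bhlhe41, also called Dec2, is a repressor that binds the same E-box sites as CLOCK and BMAL. Its level was -2.66 and -3.04 in MCLR and -2.32 and -1.82 in control, so that both MCLR arrays were below both controls. Unlike the Rev-erb genes, its highest array was control replicate 2. The log2 fold change of bhlhe41 was -0.78 ± 0.30, 1.72-fold lower, with a 95% interval from -1.52 to -0.04, an unadjusted p of 0.0415 and an adjusted p of 0.502 (limma). Another probe for this gene carried an outlier mark on 1 control array and was not tested.

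Period proteins bind cryptochromes and carry the repression into the nucleus. Among the members, per1b had the closest replicates, at 0.70 and 0.67 in MCLR and 1.22 and 1.16 in control. Its log2 fold change was -0.51 ± 0.23, 1.42-fold lower, with an interval from -1.08 to 0.07 and an adjusted p of 0.644. The moderated SE draws on the spread of all genes, so it is wider than these replicates alone would give. The second per1b probe was lower by a like amount, with -0.41 ± 0.36, but its groups overlapped, with -2.93 and -3.07 in MCLR and -2.16 and -3.04 in control.

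The gene per3 stood at -1.58 and -1.84 in MCLR and -1.42 and -1.80 in control, a log2 fold change of -0.10 ± 0.27. Its second probe gave -0.28 ± 0.25 with no overlap. For per2 the levels were -2.03 and -1.73 in MCLR and -1.74 and -2.40 in control, which overlapped, and its log2 fold change of 0.19 ± 0.32 made it the single repressor above 0. Another per2 probe gave -0.82 ± 0.86, with -3.64 and -4.14 in MCLR against -1.68 and -4.47 in control, a value that rests on control replicate 1. Intervals of -0.77 to 0.57 for per3 and -0.60 to 0.98 for per2 leave differences of up to about that size in either direction unresolved.

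**Figure D2:**
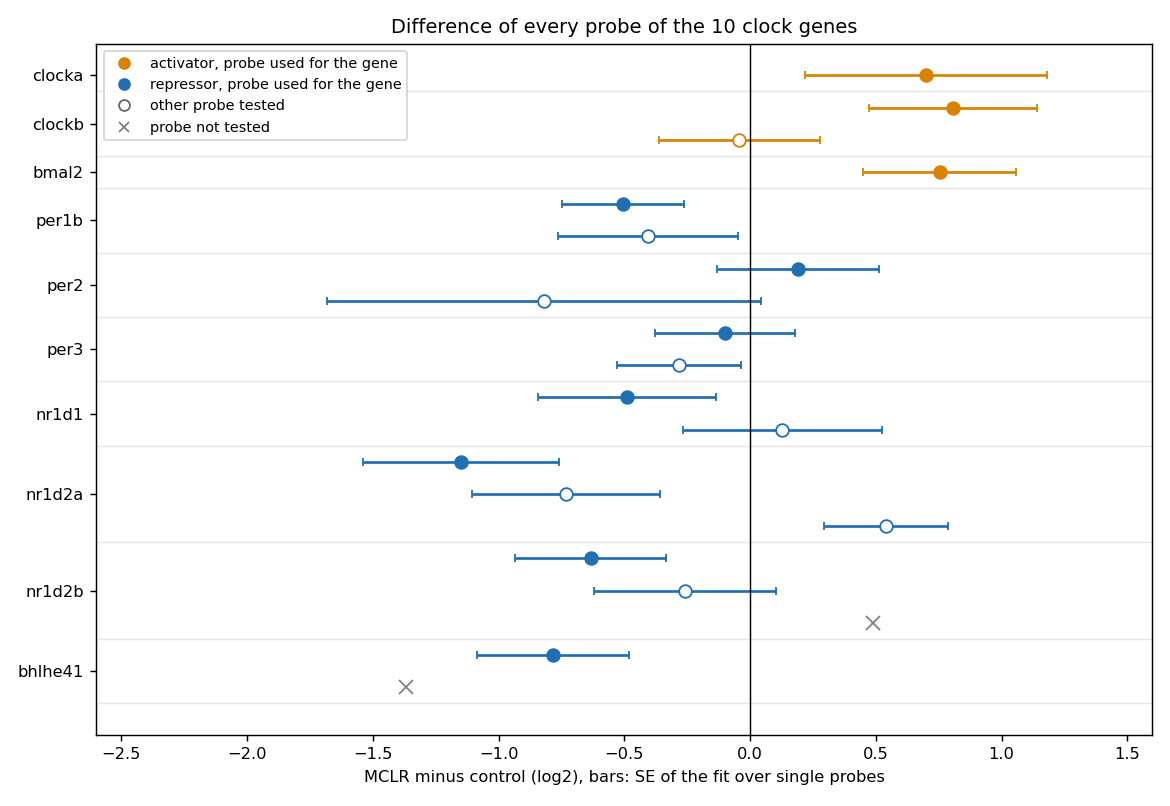
MCLR minus control (log2, horizontal axis) for each of the 20 probes of the clock genes, with bars for the SE of a fit over single probes. Filled points are the probes used for the genes, open points the other tested probes and crosses the 2 probes not tested. Of 14 tested repressor probes 11 lie left of 0, and of 4 activator probes 3 lie right of it.

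The activator genes were all dim. The level of clocka was -3.40 and -4.82 in MCLR and -4.88 and -4.74 in control, so its log2 fold change of 0.70 ± 0.49 (adjusted p = 0.881) rests on MCLR replicate 1. Without that array it was -0.0088. The level of clockb was -3.58 and -3.90 in MCLR and -4.18 and -4.91 in control, a log2 fold change of 0.81 ± 0.33 (adjusted p = 0.560), and its second probe gave -0.04 ± 0.32. For bmal2, one of the CLOCK partners, the levels were -4.08 and -3.72 in MCLR and -4.40 and -4.91 in control. Its log2 fold change was 0.75 ± 0.30, 1.69-fold higher, with a 95% interval from 0.01 to 1.497, an unadjusted p of 0.0477 and an adjusted p of 0.533 (limma).

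Signals behind these activator values were small. The processed signal of bmal2 was 17.7 and 30.2 units in MCLR and 18.6 and 10.3 in control, where the dimmest spots well above background had 8.43 and 8.19 units on the MCLR arrays and 6.83 and 6.30 on the control arrays. Dim genes in general were higher on the MCLR arrays. Among the 3112 genes with a mean level between -5 and -4, which include the 3 activators, 80.9% were higher in MCLR and the median log2 fold change was 0.43, with an interquartile range from 0.10 to 0.79. The values of clocka and bmal2 lay inside that range and that of clockb (0.81) just above it. With cyclic loess, a normalization that levels shifts differing between dim and bright probes and was added after the data were seen, the 3 activators averaged 0.29. With a background correction by normexp with an offset of 50, they averaged 0.08.

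Of the lower repressors, nr1d2a, bhlhe41, nr1d1, per1b and nr1d2b lay below the interquartile range of genes of their own level, and per3 lay inside it. By definition such a range leaves a fixed share of the genes of any level below it, and the groups of nr1d1 overlapped. For bhlhe41 the 2952 genes with a mean level between -3 and -2 had a median of 0.12 and an interquartile range from -0.11 to 0.33. Genes between -2 and -1, where nr1d2a lay, had a median of 0.07 and an interquartile range from -0.12 to 0.25. For per1b (between 0 and 1) and nr1d2b (between 1 and 2) the medians of all genes were 1.7e-04 and -0.02. The 7 repressors averaged -0.50, and -0.54 with cyclic loess and -0.39 with the background correction.

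**Figure D3:**
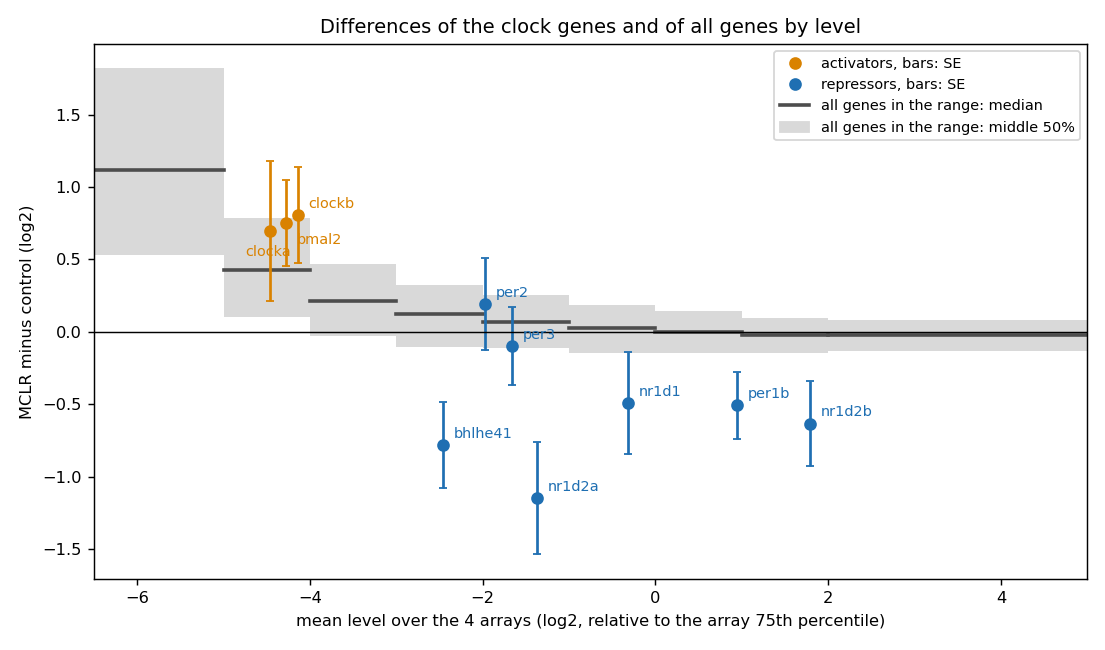
MCLR minus control (log2, vertical axis) against the mean level over the 4 arrays (horizontal axis), with SE bars for the clock genes and, for all tested genes in each range of level, the median as a line and the interquartile range as a grey band. The activators lie in the range where the median of all genes is 0.43, and nr1d2a, bhlhe41, nr1d1, per1b and nr1d2b lie below the grey band.

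Setting activators against repressors within an array removes any constant by which arrays differ in scale. Each gene was taken as its deviation from its own mean over the 4 arrays, since levels of different probes cannot be compared. The activators minus the repressors gave 0.84 on MCLR replicate 1 and 0.41 on MCLR replicate 2, against -0.65 and -0.60 on the control arrays. Both MCLR arrays thus lay above both control arrays. Group means of opposite sign follow from the deviations adding up to 0, so 0 marks no balance between activators and repressors. Members and roles were chosen with earlier results of these data known, so the score is a description only. The MCLR mean less the control mean was 1.25, with a spread between replicates of 0.22 (SD within groups, n = 2 per group), and no test is given for a score over chosen genes. Over all 18 tested probes, in place of 1 probe per gene, the difference was 0.93. It was 0.84 with cyclic loess and 0.47 after the background correction, of which the activators made up 0.08 and the repressors 0.39.

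The parts of this difference came from different arrays. The repressors deviated by -0.24 and -0.26 on the MCLR arrays, and by 0.45 on control replicate 1 and 0.05 on control replicate 2. The activators deviated by 0.60 and 0.15 on the MCLR arrays and by -0.19 and -0.56 on the control arrays. Control replicate 1 was the highest array for 5 of the 7 repressors and for 17.9% of all genes. Without control replicate 1 the repressors averaged -0.29 and 5 of 7 were lower, with per1b at -0.47, nr1d2a at -0.68, nr1d2b at -0.33 and nr1d1 at -0.15. In that fit per3 was 0.0917 and per2 was 0.52, and bhlhe41, highest on control replicate 2, was -1.03.

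**Figure D4:**
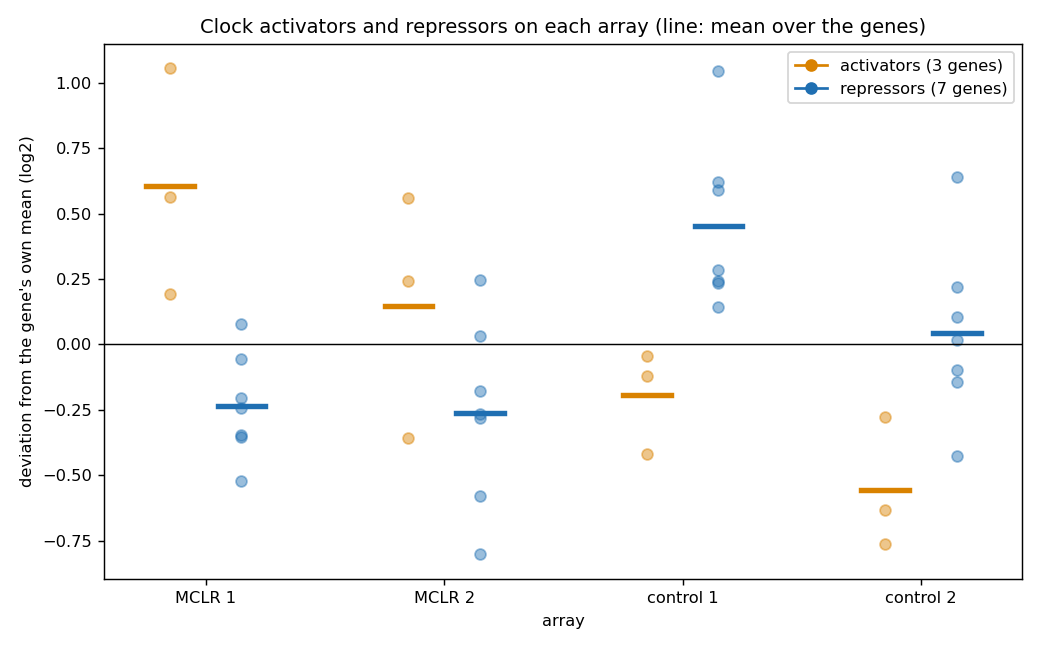
Deviation of each clock gene from its own mean over the 4 arrays (log2, vertical axis) by array, with activators left of repressors and a line at the mean over the genes. The mean of the activators lies above that of the repressors on both MCLR arrays and below it on both control arrays. Single genes overlap, as clocka does with repressors on MCLR replicate 2. MCLR and control means of a gene mirror each other, since deviations add up to 0.

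Summed RNA of cell type markers differed between arrays. The 6 germ cell markers (ddx4, piwil1, sycp3, dmc1, cimap1b, tekt1) summed to 181.6 and 197.8 times the array's 75th percentile in MCLR and 175.6 and 185.2 in control. The Sertoli cell sum, made up mostly of gsdf, was 83.1 and 76.1 in MCLR and 52.7 and 79.1 in control. Leydig cell markers summed to 41.1 and 54.9 in MCLR and 41.1 and 66.1 in control. Together with the germ cell sums, these values bore out the testis label. Of the neuron and glia markers 3 of 6 were tested, and they summed to 5.11 and 3.57 in MCLR, against 29.0 on control replicate 1 and 7.05 on control replicate 2. Among them snap25a, a gene of nerve endings, was at 1.17 and -1.81 in MCLR and at 4.26 and -1.42 in control, and the neuronal pump gene atp1a3b was at 1.40 and 1.70 in MCLR and 3.29 and 2.74 in control. The nerve cell marker elavl3 was not well above background on both arrays of either group. The glial marker gfap was higher in MCLR, but was not well above background on control replicate 2. It thus entered the test through the MCLR arrays alone, and its p supports nothing. With limma, gfap and atp1a3b were the 2 of these 3 with an unadjusted p under 0.05, which 9.2% of all genes reached. Photoreceptor and pineal markers summed to 92.4 and 42.5 in MCLR and 55.9 and 75.7 in control, mostly through exorh and rho. The level of rho was 5.36 and 0.37 in MCLR and 4.54 and 4.26 in control. The markers gnat1, gnat2 and crx were dim, with mean levels of -3.79, -2.53 and -4.19. Pancreas markers summed to 6.24 and 7.40 in MCLR and 9.91 and 108.1 in control, with all 6 highest on control replicate 2. Liver markers ran from 16.3 to 37.3 in MCLR and 14.6 to 35.6 in control, red blood cell markers from 7.03 to 10.003 and 9.18 to 18.9, leukocyte markers from 12.7 to 13.0 and 8.01 to 13.1, and smooth muscle markers from 42.0 to 47.2 and 29.0 to 53.0, in the same order of groups. All 4 tested leukocyte markers were higher in MCLR, with a median log2 fold change of 0.49, against 0.08 over all genes. The part of other cell types in the repressor values was not tested.

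Other genes of the clock pathway numbered 57 in a list by role, of which 44 had a named probe and 41 were tested. With limma 0 of the 41 passed the adjusted threshold, 1 had an unadjusted p under 0.05, as did 9.2% of all genes. Of the 41, 20 were higher and 21 lower, where 38.6% of all genes were lower, and their median log2 fold change was -0.0077. Both MCLR arrays lay below both controls for 8 of the 41 and above them for 5, where all genes gave 9.08% and 25.3%.

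The single gene of the 41 at that p was rorcb, for a nuclear receptor that opposes Rev-erb at the bmal genes. Its signal did not stand well above background on either control array, so it entered the test through the MCLR arrays alone and its p supports nothing. On the scale of the levels given here, rorcb was at least 2.88-fold higher in MCLR (limma, adjusted p = 0.122). That bound does not hold under other processing. The log2 fold change of rorcb was 1.55 on this scale, 0.97 with cyclic loess and 0.19 with the background correction. Its mean level of -4.99 lay at the lower edge of the range between -5 and -4, where the median log2 fold change of all genes was 0.43. In the range below, from -9 to -5, that median was 1.12, with an interquartile range from 0.53 to 1.82. The other ROR activators tested, roraa and rorab, were the 2 lower of 3 by their brightest probes. A dimmer roraa probe, also well above background on only 1 of the 2 control arrays, gave 0.71 ± 0.46. Of 5 rorab probes 4 gave values from -0.75 to -0.61, and a dim one, well above background on 1 of the 2 control arrays, gave 1.54 ± 0.43. Among the remaining activators bmal1a, the other common CLOCK partner, had a log2 fold change of 0.10 ± 0.25, with 1.66 and 1.93 in MCLR and 1.61 and 1.78 in control. For bmal1b it was -0.46 ± 0.31, with -3.04 and -2.40 in MCLR and -2.12 and -2.41 in control. The 3 remaining activators ranged from -0.46 to 1.02, with bmal1a above 0 and bmal1b below it. The highest was npas2, at 1.02 ± 0.44 (limma, adjusted p = 0.595), with -4.21 and -3.02 in MCLR and -4.79 and -4.48 in control. It was dim, with a mean level of -4.13, in the range between -5 and -4 where the median of all genes was 0.43.

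By their brightest probes, cryptochrome genes and per1a lay close to 0. Of 9 such genes 7 were higher and 2 lower, where 38.6% of all genes were lower, with a range from -0.31 to 0.24 and a median of 0.04. Dimmer probes lay further from 0 for some. Those of cry1b gave 0.58 ± 0.28 without overlap between groups and 0.54 ± 0.38 with overlap. The dimmer cry5 probe gave 0.37 ± 0.25 without overlap. The value of per1a was 0.0091 ± 0.29, with -1.65 and -2.17 in MCLR and -1.76 and -2.07 in control. For cry1a, a light-induced cryptochrome gene of zebrafish, the value was -0.31 ± 0.32 (0.96 and 1.36 in MCLR, 1.78 and 1.16 in control), and its second probe gave 0.02.

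The Dec1 gene bhlhe40, the close relative of bhlhe41, stood at 0.92 and 1.24 in MCLR and 2.52 and 1.42 in control. The groups did not overlap, control replicate 1 was far above the rest, and the log2 fold change was -0.89 ± 0.41 (adjusted p = 0.655). Without control replicate 1 it was -0.34. Its second probe gave -0.12. The clock genes nr1d4a, nr1d4b, ciarta and ciartb, likewise repressors, were not analysed here.

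Among the PAR bZIP genes and their nfil3 opponents, which pass clock timing on to other genes through D-box sites, 6 of 9 were lower and 3 higher, and for 3 both MCLR arrays lay below both controls. Over all genes 38.6% were lower, and 9.08% lay below without overlap. The level of tefa was 2.15 and 2.25 in MCLR and 2.66 and 2.65 in control. Its log2 fold change was -0.45 ± 0.23 (adjusted p = 0.732), 4 of 4 probes were lower, from -0.41 to -0.82, and without control replicate 1 it was -0.44. As for per1b, the gap between the groups was wider than the gap within either. For dbpa the levels were -1.99 and -3.13 in MCLR and -1.75 and -2.04 in control (log2 fold change -0.66 ± 0.42). For nfil3-5 they were 0.37 and 0.29 in MCLR and 0.0021 and 0.29 in control (0.19 ± 0.25). The other nfil3 genes went both ways by their brightest probes. Without overlap between groups, nfil3-6 was lower (-0.71 ± 0.40) and the dim nfil3-4 higher (0.44 ± 0.25), and nfil3 was at -0.02.

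Kinases and ubiquitin ligases that set the stability of clock proteins had 7 of 11 members lower and 4 higher, with a median of -0.06 and a range from -0.53 to 0.81. The 3 tested output genes had a median of 0.0026, with a range from -0.07 to 0.20.

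**Figure D5:**
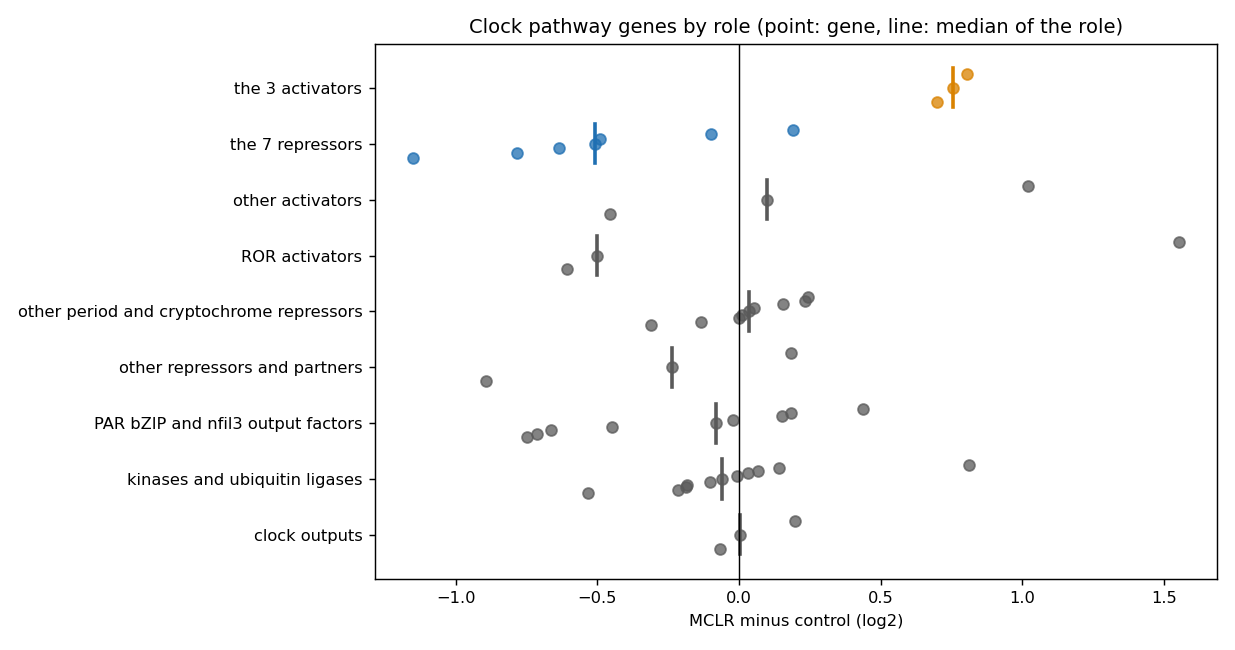
MCLR minus control (log2, horizontal axis) for the 10 clock genes and the 41 other tested clock pathway genes, grouped by role, with a point per gene and a line at the median of the role. The 7 repressors have a median of -0.51, while per1a and the cryptochrome genes lie between -0.31 and 0.24. Their row is labelled as other period and cryptochrome repressors. That label names a list, and not every gene in it need repress CLOCK and BMAL.

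The mean pattern of the 7 repressors over the 4 arrays was compared with 11048 named genes well above background on all of them. The 5 nearest were calm1a, a calmodulin gene, tmt1a.1, atp2b4, a plasma membrane calcium pump gene, slc9a7, a sodium-proton exchanger gene, and kirrel1a, a cell adhesion gene. Their root mean square distance from the repressor pattern was 0.028 to 0.038 log2 units, and their log2 fold changes lay between -0.56 and -0.47. They were picked for that likeness, so no test is given for them.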

How the data were processed

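Cy3-labelled cRNA of 4 testis samples was hybridized to 1-colour Agilent arrays. The scanner files were written by Agilent Feature Extraction 11.0.1.1, and their processed signal is, per the file headers, a linear intensity after background subtraction and spatial detrending, with no scaling between arrays. The authors' deposited value table is in log2 with the same median (5.90) on all 4 arrays. How it was made is not given in the sources used here. It correlated at 0.992 to 0.995 with the log2 processed signal across probes and served as an alternative.

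From each log2 processed signal the log2 of the array's 75th percentile over 43803 spots was subtracted (301.0 and 397.8 units for MCLR, 393.3 and 310.3 for control). Of the spots 81.9% to 88.2% were well above background and 0 were saturated. Replicate spots were averaged after dropping outlier-marked ones, which removed 60 probes. Names came from the RefSeq table of assembly GRCz12tu for 25978 of 43603 probes (59.6%). The array was designed on an earlier build, so no coordinates are given. Probes had to be well above background on both arrays of 1 group or more, and the brightest kept probe on average stood for its gene.

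Groups were compared with limma 3.58.1 in R 4.3.3 (group alone, eBayes, two-sided, Benjamini-Hochberg over 24330 genes, threshold 0.05). The residual degrees of freedom were 2 and the prior's 3.52. At the median SE of 0.28 an unadjusted p of 0.05 needs a log2 fold change of 0.69, so the number of arrays limits the precision. Single probes were fitted over 37427 probes. For a gene not above background in 1 group, the fold is a lower bound against the dimmest signal well above background on each array. Such a bound holds only for the scaling used in the main comparison.

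Members, roles and lists were chosen with earlier results of these data known. Named were all members, other clock genes at an unadjusted p under 0.05 (up to 8), 9 others in any case and the 5 genes nearest the repressor pattern. The genes npas2, roraa, rorab, nr1d4a, nr1d4b, ciartb, cry1b and cry5 are named beyond that rule, after values were seen. Alternatives covered scaling, background correction, filter, probe choice, prior, block and single arrays. Python 3.11.15, numpy 2.4.6, pandas 2.3.3 and matplotlib 3.10.9 made tables and plots.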

Additional observations from a re-analysis of the deposited data

How the results depend on the processing

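The 10 clock genes and the 41 others had 0 members past the adjusted threshold under all 15 alternatives, while over all genes 214 passed with median scaling, 2 with a trended and robust prior and 0 to 328 without 1 array. In 145 of 150 combinations of member and alternative the direction was kept, and 7 members were never reversed. Both changes of the filter, the fit of every probe on its own, the block and the trended and robust prior repeated each member's main log2 fold change. No direction could turn in these, so the count overstates how far directions held. Members at an unadjusted p under 0.05 numbered 1 with no filter on dim probes and 0 to 3 without 1 array, the 0 being without MCLR replicate 1 and 1 without MCLR replicate 2. Other clock genes at that p numbered 3 with each of quantile normalization, the deposited table and cyclic loess (added after seeing the data), 2 with median scaling, 2 with the trended and robust prior, 0 with a signal on all 4 arrays required, and 1 to 6 without 1 array, the 6 being without control replicate 2. The activators minus the repressors (1.25) gave 0.90 in the deposited table and after quantile normalization, 0.47 after the background correction, 0.84 with cyclic loess, 1.01 when probes of a gene were averaged and 1.03 to 1.46 without 1 array. Reversals were per2 with the mean of its probes (-0.31) and per1a with quantile normalization (-0.0422) and in the deposited value table (-0.0422), with the background correction (-0.0482), median scaling (-0.0868) and cyclic loess (-0.0730). Without 1 array, values ran from -0.0088 to 1.40 for clocka, -0.14 to 0.52 for per2, -0.29 to 0.0917 for per3, -0.25 to 0.27 for per1a, -0.62 to 8.2e-04 for cry1a and -0.0370 to 0.23 for bmal1a. The cause was not tested. With the replicate number as a block, 2 members and 3 other clock genes had an unadjusted p under 0.05. The members were nr1d2a (0.0102) and clockb (0.0309), while bmal2 (0.0713) and bhlhe41 (0.0637) no longer had one. No adjusted call appeared. Without a block, the limma p of bmal2 was also above 0.05 with quantile normalization (0.317) and the background correction (0.333). The same held with median scaling (0.0900) and cyclic loess (0.398), while bhlhe41 stayed under 0.05 in each of these. With the background correction per1b was under it too (limma, unadjusted p = 0.0194). The activators minus the repressors is computed from the levels without the block, so the block could not change it. Same-numbered arrays correlated at 0.19 in their deviations, and the labels do not say that a number marks 1 of the 2 experiments, so the block was not the basis of any result. Dim signals limit the activator values, and 2 arrays per group limit all of them.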
